A study of Mus musculus with 8 samples.

Results

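The AP-1 members described here are 7 genes, Fos, Fosb, Fosl2, Jun, Junb, Jund and Atf3, and every array probe whose platform symbol is one of these names. Of the 7 genes, 6 had a probe and each had 1, so 6 of the 25697 probes are members, and Fosl2, a Fos relative, was not analysed here. All 6 probes were among the 10021 named probes tested. RNA came from CD4 T cells sorted from C57B6 mice of both sexes, aged 7 to 14 weeks. The sort gave Treg, regulatory T cells positive for the Foxp3 GFP reporter, and Tcon, conventional T cells negative for it, from spleen or from small intestine, called gut here. All mice carried FOXP3GFP. Control mice were MHCII+/-, so heterozygous for the MHC class II locus. K14 mice were K14Aβb, whose class II beta chain comes from a transgene named for the keratin 14 promoter, and by the labels they have no MHC class II in the periphery. For every combination of tissue, cell type and genotype there was 1 array and 1 pool of mice, without a replicate, so that p-values reflect the spread between these 8 arrays and nothing else.

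AP-1 is a family of transcription factor dimers. Fos proteins bind DNA only as partners of Jun proteins, Jun proteins also pair with each other, and Atf3 pairs with Jun proteins or with itself. Several of these genes are immediate early genes, switched on by MAP kinase and calcium signals without new protein synthesis, as after engagement of the T cell receptor or during cell stress, and in T cells AP-1 binds with NFAT at cytokine genes such as Il2.

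The bases just before the start of transcription are shown for the 5 members in which a motif searched for was found. They are from RefSeq (GRCm38.p6), cover the last 150 bases before each gene's start, and are written 5′ to 3′ on the gene's strand. Capitals mark TGACG or its reverse complement CGTCA, the first letters of the cyclic AMP response element, and TGACATCA, a relative of that element.
Fos, chr12:85473740-85473889, plus strand: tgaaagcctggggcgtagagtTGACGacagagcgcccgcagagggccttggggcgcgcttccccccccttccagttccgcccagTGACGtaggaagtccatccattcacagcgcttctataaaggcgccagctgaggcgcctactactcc
Fosb, chr7:19310046-19310195, minus strand: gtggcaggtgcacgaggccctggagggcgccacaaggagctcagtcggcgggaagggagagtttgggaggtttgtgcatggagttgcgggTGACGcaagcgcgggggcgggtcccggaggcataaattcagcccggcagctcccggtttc
Jun, chr4:95052223-95052372, minus strand: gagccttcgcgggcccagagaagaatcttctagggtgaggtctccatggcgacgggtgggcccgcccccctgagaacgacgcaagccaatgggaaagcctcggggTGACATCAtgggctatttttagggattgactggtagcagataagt
Junb, chr8:84978749-84978898, minus strand: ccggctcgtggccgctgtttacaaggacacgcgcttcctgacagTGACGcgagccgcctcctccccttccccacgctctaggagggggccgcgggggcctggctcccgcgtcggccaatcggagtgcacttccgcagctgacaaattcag
Atf3, chr1:191183334-191183483, minus strand: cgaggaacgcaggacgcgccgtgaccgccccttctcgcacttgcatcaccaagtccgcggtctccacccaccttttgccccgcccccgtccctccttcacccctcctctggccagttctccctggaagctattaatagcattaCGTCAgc
The search ran on both strands of the window from 250 bases before to 50 after the start, for all 7 members. TGACG, which overlaps the full element TGACGTCA, lay in 4 of the 7 windows against 20.8% of 32841 promoters. It ended 125 and 62 bases before the start of Fos, 56 before Fosb, 102 before Junb and 3 before Atf3. TGACATCA was found in the Jun window, where it ended 38 bases before the start, and in 3.62% of all promoters. None of the 7 windows held TGACTCA, the classical AP-1 site (5.2% of all promoters), the full TGACGTCA (1.79%) or a CArG box, the site of serum response factor (1.63%). These matches describe letters in these windows and are not measured binding sites.

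A probe was above background on an array where its deposited detection p was under 0.05. Between 8822 and 9677 probes passed per array, median intensities were 211.4 to 250.2 units, and the number of arrays limits the precision. Of the 7 T cell markers with a probe, 6 were above background on all 8 arrays. The 6 include Cd8b1, a gene of CD8 T cells, at 9.8 to 13.38 log2, so the count does not check the CD4 sort. Cd8a was above background on no array, and Cd4 read 7.58 to 8.31 log2. The Treg markers Nrp1, Il2ra and Tnfrsf18 rose in Treg, while the Foxp3 probe in use read 6.76 to 7.08 log2 on every array and so does not check the sort. H2-Ab1, the gene deficient in K14 mice, does not check the genotypes: its brightest probe read 13.2 and 13.38 log2 on the spleen arrays labelled K14 against 11.63 and 11.02 in controls, and 12.87 and 10.94 against 12.25 and 10.99 in gut. The genotypes below are those of the labels. On the gut control Tcon array 12 of 13 exocrine pancreas markers were above background, against 2 to 5 on each of the other arrays.

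Comparing gut with spleen asks how these factors differ between T cells of the 2 tissues. All 6 probes were brighter in gut, and on every gut array each was above its level on every spleen array. For Fos, Jun, Junb and Jund this stands beside 6.09% of all tested probes. Fosb and Atf3 are not set against that share, since their probes met the filter on low values through the gut arrays. Their spleen level was mostly background. Among the 4 members above background in both tissues on most arrays, Fos differed by the most, then Jun, Junb and Jund. Jun and Junb changed places with the authors' deposited log2 values (2.91 against 3.09) and without background correction (2.93 against 3). They also did so without the control Treg pair (2.92 against 2.97). Fosb and Atf3 read at or near background in spleen, so they are not placed in that order. The rank order of tissues was the same in Treg and Tcon and under both genotype labels. In pooled RNA, more cells that express a gene and more RNA per cell cannot be told apart. Cells were prepared separately from spleen and gut, so preparation and tissue cannot be told apart either.

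Fos, the founding Fos protein and an activator of transcription when paired with Jun, was above background on all 8 arrays. In spleen its intensity was 1135 units in control Tcon and 1134.4 in control Treg, then 1579.1 in K14 Tcon and 1983.2 in K14 Treg. In gut it was 16062.1 in control Tcon, 12172.3 in control Treg, 23033.6 in K14 Tcon and 21573.7 in K14 Treg. Both K14 arrays stood above both control arrays within each tissue, and the dimmest gut array was far above the brightest spleen array, by 2.28 on the log2 scale after normalization. The gut minus spleen difference was 3.76 ± 0.22 log2 (SE, 4 pairs), or 13.5-fold, with an adjusted p of 0.0107 by limma. The pairs gave 4.18 in control Tcon, 3.74 in control Treg, 3.96 in K14 Tcon and 3.17 in K14 Treg.

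Fosb encodes a second Fos protein, known also for a short, stable splice form in neurons. Its spleen intensities were 261.4 in control Tcon, 244.1 in control Treg, 313.5 in K14 Tcon and 210.4 in K14 Treg, and of these only the K14 Tcon array was above background. The gut arrays read 1670.3 in control Tcon, 1450.3 in control Treg, 3729.1 in K14 Tcon and 4638.3 in K14 Treg. Gut cells labelled K14 thus held the most, gut control cells less, and spleen cells little above or at background. The gut minus spleen difference, 4.79 ± 0.37 log2 or 27.6-fold (adjusted p = 0.0139), is partly against background since 3 of 4 spleen arrays did not detect the gene. With the log2 values the authors deposited it was 2.8, or 6.96-fold. In K14 Treg the difference was 6.1 log2, against 4.17 to 4.7 in the other 3 pairs.

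Jun encodes c-Jun, the main DNA-binding partner of Fos. In spleen it read 454.2 units in control Tcon and 614.9 in control Treg, against 1509.4 in K14 Tcon and 1706.5 in K14 Treg. In gut the values were 5106.8 in control Tcon, 9418.4 in control Treg, 7788.9 in K14 Tcon and 9213.6 in K14 Treg. The gut arrays lay close together, apart from a lower control Tcon, while the spleen arrays fell into a lower control pair and a higher K14 pair. The gut minus spleen difference was 3.31 ± 0.47 log2 or 9.91-fold (adjusted p = 0.0448). It was 4.18 and 4.48 in the control pairs of Tcon and Treg, and 2.43 and 2.14 in the K14 pairs.

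Junb, a Jun protein that can restrain c-Jun and takes part in helper T cell differentiation, was above background on all 8 arrays. Spleen arrays gave 2784.4 units in control Tcon, 3441.8 in control Treg, 5204 in K14 Tcon and 3887.1 in K14 Treg. Gut arrays gave 29160.4 in control Tcon, 30366.4 in control Treg, 25283.8 in K14 Tcon and 37849.8 in K14 Treg, none near the top of the scale. The difference was 3.07 ± 0.27 log2 or 8.38-fold (adjusted p = 0.0178), lowest in K14 Tcon at 2.26 and highest in control Tcon at 3.64.

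Jund, a Jun protein usually present in resting cells and less inducible than its relatives, showed the smallest difference. It read 330.9 units in control Tcon, 292.4 in control Treg (not above background), 313.9 in K14 Tcon and 376.1 in K14 Treg of spleen. In gut it read 656.3 in control Tcon, 715.9 in control Treg, 593.1 in K14 Tcon and 811.4 in K14 Treg. The tissues did not overlap, and the gap between the nearest arrays was 0.82 log2, against 1.36 to 3.32 for the other members. The difference was 1.64 ± 0.24 log2 or 3.12-fold (adjusted p = 0.0471), and 0.71 with the authors' deposited log2 values.

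Atf3, a stress-induced relative from the ATF family that represses many of its targets, was above background on no spleen array. Its spleen readings were 171.3, 193.2, 166 and 172.9 units in control Tcon, control Treg, K14 Tcon and K14 Treg. The gut arrays read 650.3 in control Tcon, 729.2 in control Treg, 873.2 in K14 Tcon and 1297.8 in K14 Treg. The 4 gut arrays therefore all exceeded the spleen arrays, on which the gene has only a bound. With the main background correction, Atf3 was at least 5.63-fold (2.49 log2) higher in gut. The fitted means were 9.29 log2 in gut and 5.41 in spleen, with an adjusted p of 0.0126 by limma for the fitted difference. The bound compares the gut mean with the higher, on each spleen array, of the lowest signal still above background and the probe's own reading. Its probe passed the filter on low values through the gut arrays alone, so it had to differ. With the authors' deposited log2 values the difference was 1.57, or 2.97-fold, and without background correction it was 2.21 log2. Both lie below that bound, which therefore holds only for the main processing.

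**Figure D1:**
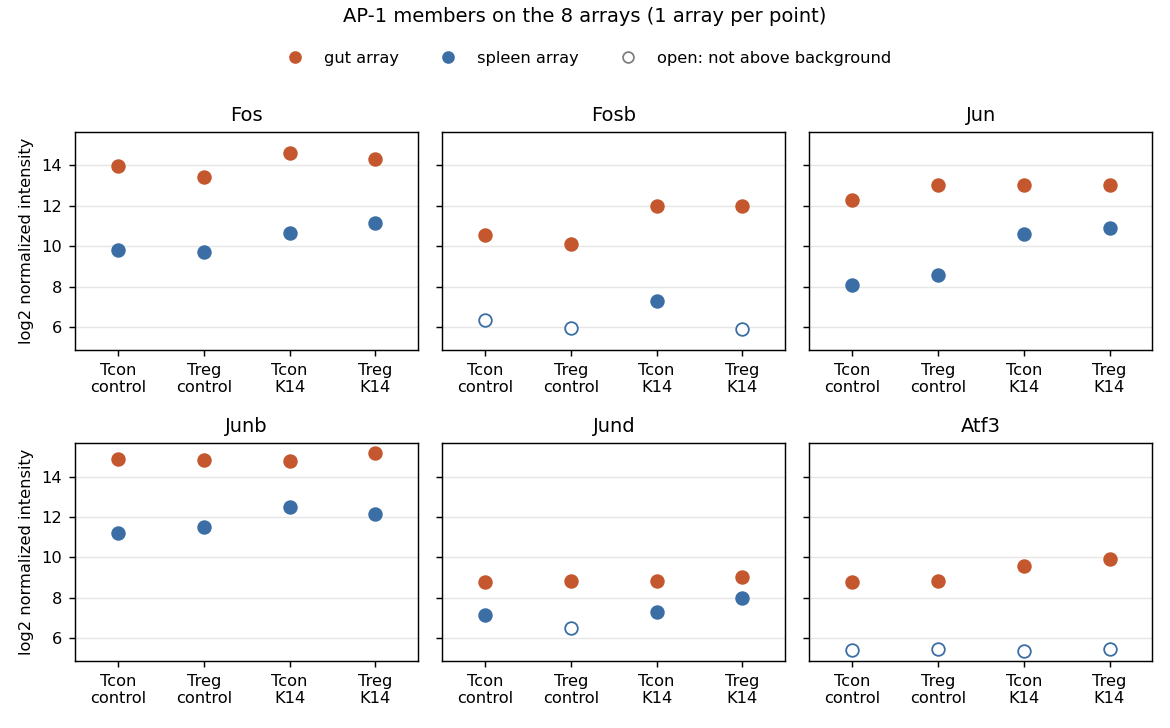
Log2 normalized intensity of each AP-1 member on the 8 arrays, by cell type and genotype label (x axis), with 1 point per array and open points where the probe was not above background. In all 6 panels every gut array (orange) lies above every spleen array (blue), with the narrowest gap, 0.82, for Jund. Heights are comparable within a panel, not between panels.

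By limma with the 4 pairs as blocks, Fos, Jun, Junb and Jund passed as higher in gut at an adjusted p under 0.05, where 1.52% of all tested probes did. Fos, Jun and Junb were above background on all 8 arrays and Jund on 7, so that their differences are between measured levels, and each was higher in 4 of 4 pairs. Fosb and Atf3 were called too, but their probes met the filter on low values through the gut arrays, so their calls are not set against that share. Without the control Tcon pair, which holds the array with pancreas transcripts, without the control Treg pair or without the K14 Tcon pair 0 of 6 passed, and without the K14 Treg pair 3 passed (Fos, Fosb and Atf3). The differences themselves stayed between 1.42 and 5 log2 in those settings. Without the control Tcon pair they were 3.62 for Fos, 4.99 for Fosb, 3.02 for Jun, 2.88 for Junb, 1.64 for Jund and 4.04 for Atf3.

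Epithelial markers moved with the same arrays. Of 7 with a probe, 3 to 6 were above background on the gut arrays and 3 on each spleen array, their summed intensity was 4602.9 to 9727.2 in gut and 2191 to 2595.6 in spleen, and Krt8, a keratin, rose by 3.33 ± 0.47 (adjusted p = 0.0448). Fabp2, an enterocyte gene, was above background on no array. The myeloid marker S100a9 was lower in gut, by a log2 difference of -5.5 ± 0.59 (adjusted p = 0.0275). S100a9 was above background on 4 spleen arrays and no gut array. Its probe thus met the filter through the spleen arrays, and its value is against background. The part of these markers in the members' differences was not tested.

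**Figure D2:**
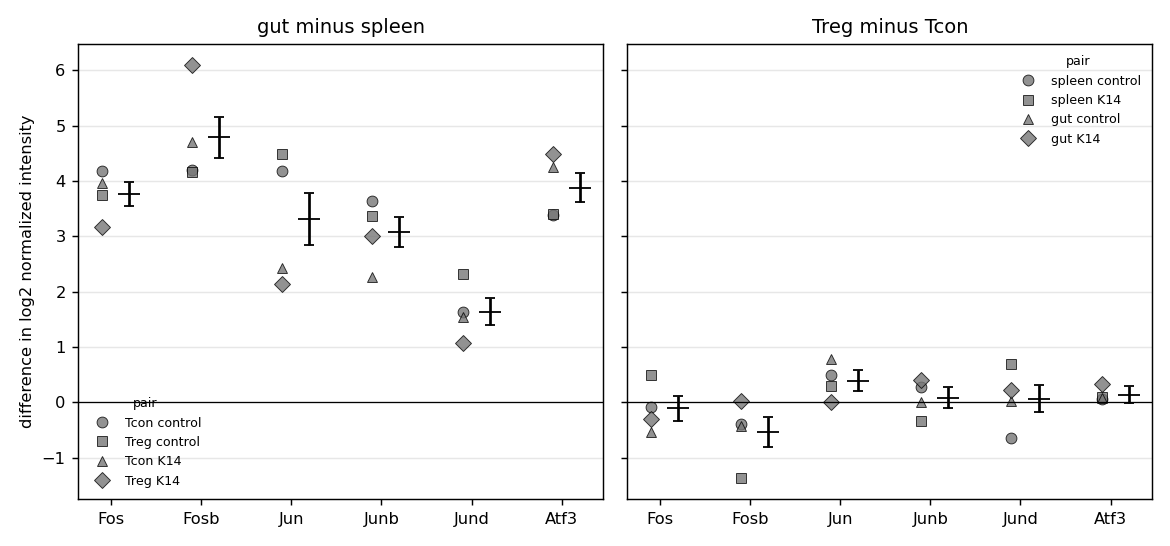
Differences in log2 normalized intensity for each member, gut minus spleen on the left and Treg minus Tcon on the right, with 1 marker per pair of arrays and a bar for the mean with limma's SE. All gut minus spleen pairs lie above 1, while the Treg minus Tcon pairs scatter around 0, between -1.37 and 0.79.

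Comparing Treg with Tcon asks whether regulatory cells differ from conventional cells in these factors. No member differed by the test: 0 of 6 passed, where 0.549% of all probes did, and 0 of 6 had an unadjusted p under 0.05, where 14.8% did. Fosb was lower in Treg in 3 of 4 pairs, with a difference of -0.54 ± 0.27 log2 (SE, 4 pairs, limma adjusted p = 0.427). Most of it came from the spleen K14 pair, at -1.37, where the Treg reading was at background. For Jun the difference was 0.39 ± 0.19, with 0.79 in gut control as its highest pair and 0 in gut K14.

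The other members stood closer to 0. Fos was at -0.11 ± 0.22, with 0.49 in spleen K14 and negative values in the other 3 pairs, and Junb was at 0.08 ± 0.19. Jund was at 0.07 ± 0.25, from -0.65 in spleen control, where the Treg reading was at background, to 0.69 in spleen K14. Atf3 was at 0.14 ± 0.15, from 0.06 to 0.33. Each of these differences is smaller than the member's difference between tissues, and a p that misses the threshold does not show that the cell types hold equal amounts.

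Comparing the arrays labelled K14 with controls asks how these factors depend on peripheral MHC class II. None of the 10021 probes passed by limma, so 0% were called and 0 of 6 members were. All 6 members had a positive mean difference, as had 4829 of the 10021 probes. Of the members, 3 of 6 (Fos, Fosb and Jun) had an unadjusted p under 0.05, as had 7.8% of all probes. Fos and Jund were higher on the K14 array in all 4 pairs, as were 7.7% of all probes.

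Fos differed by 0.96 ± 0.19 log2 (SE, 4 pairs, adjusted p = 0.475), from 0.64 in gut Tcon to 1.45 in spleen Treg. In linear terms the spleen Treg pair was 2.74-fold higher and the gut Tcon pair 1.56-fold. Fosb stood at 1.07 ± 0.34 (adjusted p = 0.562), with 1.45 for Tcon and 1.9 for Treg of the gut. In spleen it was 0.94 for Tcon and -0.03 for Treg, whose arrays were both at background. Its level in gut was therefore 2.74-fold and 3.73-fold higher on the K14 arrays.

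Jun had the largest mean difference, 1.41 ± 0.48 (adjusted p = 0.589), and it came from spleen. There the K14 array was higher by 2.53 in Tcon and 2.33 in Treg, or 5.76-fold and 5.04-fold, while the gut differences were 0.78 in Tcon and -0.01 in Treg. Junb was also higher in both spleen pairs, at smaller size, with 1.28 and 0.67 in spleen Tcon and Treg and -0.09 and 0.32 in gut (mean 0.54 ± 0.26, adjusted p = 0.673). Jund was at 0.47 ± 0.29 (adjusted p = 0.764), mainly from spleen Treg at 1.47, where the control reading was at background.

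Atf3, above background in gut alone, was 1.76-fold higher on the K14 array in gut Tcon and 2.1-fold in gut Treg, with log2 differences of 0.82 and 1.07. In spleen both arrays of each pair were at background, and their differences were -0.05 and -0.02. Over the 4 pairs the mean was 0.46 ± 0.26 (adjusted p = 0.729).

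**Figure D3:**
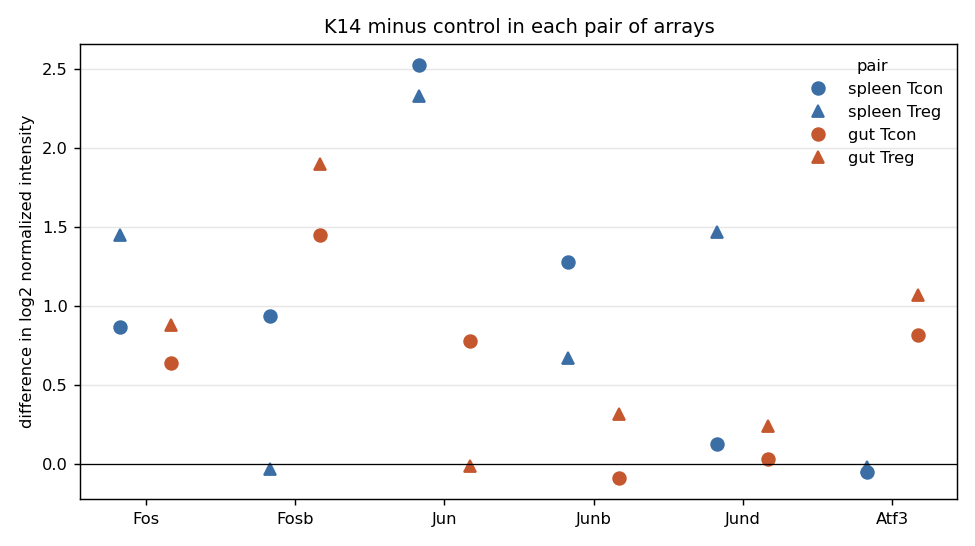
Difference in log2 normalized intensity, K14 minus control, for each member in each of the 4 pairs of arrays, with spleen in blue, gut in orange, Tcon as circles and Treg as triangles. Jun lies highest in spleen (2.53 and 2.33) and Fosb highest in gut (1.45 and 1.9), and Fos lies above 0 in all 4 pairs.

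The difference between those differences was fitted too. By limma 0% of all probes passed for the K14 minus control difference in gut against spleen, and 0 of 6 members did. Jun gave -2.04 ± 0.41 log2 (SE, adjusted p = 0.626), Fosb 1.22 ± 0.48 (adjusted p = 0.789) and Atf3 0.98 ± 0.32 (adjusted p = 0.747). Jun and Atf3 had an unadjusted p under 0.05, as had 6.34% of all probes. Values for the other members were -0.86 for Junb, -0.67 for Jund and -0.4 for Fos. The contrast has 2 residual degrees of freedom before moderation.

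The gut minus spleen difference did not pass as different between Treg and Tcon for any member, with 0% of all probes called and 6.63% at an unadjusted p under 0.05, among them 0 members. The same held for the K14 minus control difference between Treg and Tcon, with 0% called, 4.74% at an unadjusted p under 0.05 and 0 members among them.

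Markers of other cells moved with the genotype labels. All 8 tested myeloid markers and all 5 tested B cell markers had a positive K14 minus control difference, as had 4829 of 10021 probes. Their medians were 1.69 and 1.27, against -0.01 for all probes, and none passed the test. Cd14, a myeloid marker, was above background on 3 K14 arrays and no control array, so its value is against background. The hemoglobin gene Hba-a1 stood at 2.95 ± 0.4 (adjusted p = 0.262), higher in all 4 pairs, with 11.82 and 11.58 log2 on the spleen K14 arrays against 8.13 and 8.41 on the spleen controls. The summed myeloid intensity was 19989.9 and 17592.6 on the spleen K14 arrays, 11968.1 and 10708.6 on the spleen control arrays, and 9472.6 to 14748.8 in gut. Of 10 myeloid markers with a probe, 8 were above background on each spleen K14 array and 2 to 6 elsewhere. Itgam and Itgax, integrins of myeloid cells, and the B cell factor Pax5 were above background on no array. The part of such cells in the members' K14 values was not tested.

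Genes of other lists were counted beside the members. Of the other immediate early genes, 23 of 30 were tested. By the test 10 rose in gut and 0 fell, and 18 were higher in all 4 pairs. The 10 include Klf4, and the 18 include Klf4, Nr4a2 and Rgs2, whose probes met the filter through the gut arrays. The remaining genes stand beside 1.52% of all probes that rose, 0.619% that fell and 14% that were higher in all 4 pairs. The median difference of the 23 was 1.56. Among the 10 that passed, the largest increase was in Tnfaip3, an inhibitor of NF-kB signalling, at 3.81 ± 0.19 (adjusted p = 0.0107). It was followed by Gadd45b at 3.56, Nfkbiz at 3.37 and Klf4 at 3.11. Klf4 was above background on 1 of 4 spleen arrays, so its call is not set against the share of all probes. Dusp1, a phosphatase that switches off MAP kinases, followed at 2.8, the stress phosphatase subunit Ppp1r15a at 2.67, Klf6 at 2.32 and the early activation antigen Cd69 at 1.73. Nfkbia, the inhibitor IkB-alpha, rose by 1.58 and Zfp36, a factor of mRNA decay, by 1.21. Rgs1, named after its values were seen, did not pass but stood above Gadd45b, at 3.79 ± 0.63 (adjusted p = 0.0531). Dusp1, Cd69, Zfp36 and Rgs1 were above 60000 units, near the top of the scale, on 2, 4, 3 and 1 arrays. Egr1, a zinc finger factor induced with Fos and named here for that role after its values were seen, stood at 1.19 ± 0.31 (adjusted p = 0.109) and was above 60000 units on 1 array.

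Among the other AP-1 and bZIP factors, 18 of 33 were tested, with a median of 0.6. In gut 3 rose and 0 fell, against 1.52% and 0.619% of all probes. The 3 were Nfil3, a repressor with roles in lymphocyte lineages, at 4.4 ± 0.52 (adjusted p = 0.0313), Crem, a cyclic AMP responsive factor, at 2.54 ± 0.22 (adjusted p = 0.0178), and Cebpb, a factor of inflammatory gene expression, at 1.5 ± 0.21 (adjusted p = 0.0448). Batf, a partner of Jun proteins in effector T cells, also named after its values were seen, stood at 1.17 ± 0.33 (adjusted p = 0.127) and was above background on all 8 arrays.

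Genes that act above or beside AP-1 were counted in the same way. Of the MAP kinases, their activators and the cofactors of serum response factor, 14 of 26 were tested, with a median of -0.2. None passed in either direction, where 2.14% of all probes did. The largest differences there were -1.56 for Mapk12 and -1.36 for Mapk11, both p38 kinases. Mapk12 was above background on 2 spleen arrays and no gut array, so its value is against background. Of the NFAT and IRF list 8 of 10 were tested and 0 passed, against the same share, with a median of -0.01. Irf4, which binds with AP-1 in T cells, stood at 2.5 ± 0.39 (adjusted p = 0.0508) and the calcineurin chain Ppp3ca at -0.67.

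Among heat shock genes, 9 of 13 were tested, with a median of 0.57, and 1 rose in gut. The gene that rose was Hspa1a, the inducible chaperone Hsp70, at 8.04 ± 0.54 (adjusted p = 0.0126), with 13.13 to 15.04 log2 in gut and 5.45 to 6.98 in spleen. Hspa1a was above background on 1 of 4 spleen arrays, so its call is not set against that share.

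**Figure D4:**
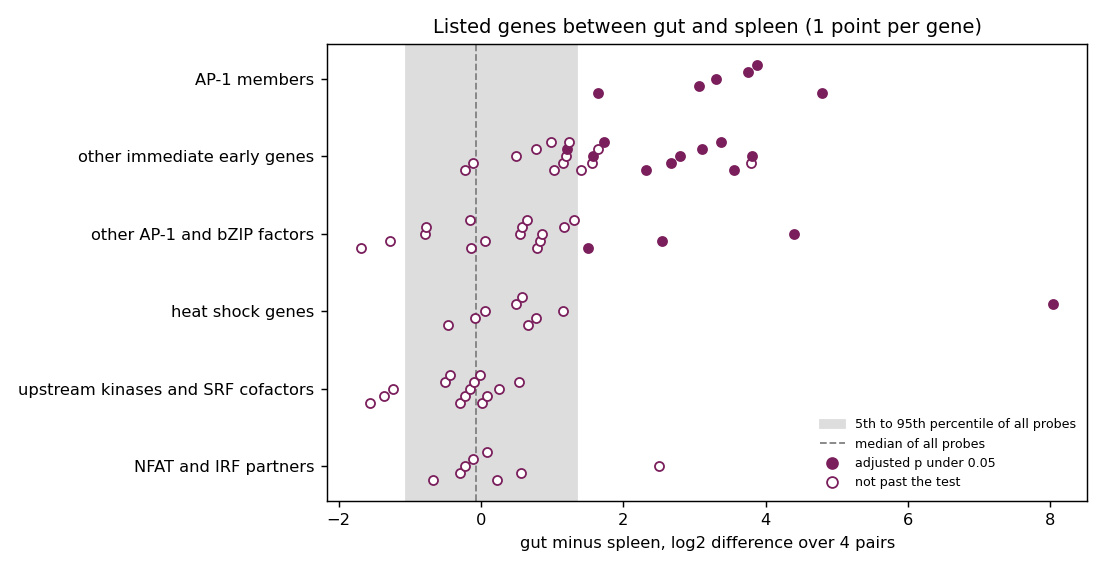
Gut minus spleen difference in log2 normalized intensity for each tested gene of 6 lists, filled where the adjusted p was under 0.05, with the range from the 5th to the 95th percentile of all probes in grey. All 6 AP-1 members lie to the right of the grey band, as do several immediate early genes, while the kinases centre near its middle. Hspa1a is the point at 8.04.

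Between Treg and Tcon, and between genotype labels, none of the other immediate early genes or other bZIP factors passed. For Treg minus Tcon their medians were 0.23 and 0.06, and the largest differences were 1.23 for Rgs1, a regulator of G protein signals, 1.07 for the phosphatase Dusp2, 1.83 for Nfil3 and 1.55 for Creb1. Creb1 was above background on 4 Treg and 2 Tcon arrays, so its value is partly against background. For K14 minus control the medians were 0.23 and -0.03. The largest differences there were 1.27 for Ier3 and -1.18 for Egr2, a zinc finger factor of T cell receptor signalling, and 1.76 for Nfe2 and 0.87 for Crem. Nfe2 was above background on 3 K14 arrays and 1 control array, so its value is mostly against background. Egr2 was lower on the K14 array in all 4 pairs, opposite in sign to Fos. Among the other 3 lists 1 gene passed in these comparisons, the small heat shock gene Hspb1, which rose in Treg by 1.67 ± 0.17 (adjusted p = 0.0403). Hspb1 was above background on 4 Treg arrays and 1 Tcon array, so its value is mostly against background.

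The profile of each member over the 8 arrays was set beside 8792 probes of other genes above background on at least 4 arrays. Arrays fall into gut and spleen, so these Pearson correlations mostly follow the tissue difference and are given as descriptions. The closest to Fos were H1f2, a linker histone (r = 0.982), Tnfaip3 (0.979) and Klf6 (0.975), and to Fosb H1f2 (0.993), Bhlhe40 (0.977) and Tnfaip3 (0.975). Atf3 was closest to Tnfaip3 (0.998), then to Slc16a6 and Mmrn2 (both 0.983). Jun and Jund had a different nearest gene, Csnk1d, a casein kinase (0.976 and 0.973), followed by Cpeb2 (0.972) and Ptbp1 (0.969) for Jun and by Cdkn1a (0.972) and Rassf1 (0.969) for Jund. Junb was closest to Cd69 (0.983), Asb2 (0.981) and Chst11 (0.979).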

How the data were processed

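The 8 arrays were read from a deposited table that gives, per the file headers, each probe's intensity (linear, not log-transformed) and its detection p-value on every array. Background correction or normalization before deposit is not given in the sources used here. A second deposited table holds log2 values, whose normalization and centring are not stated, and these served as an alternative. Background was inferred from detection p-values and removed with limma's nec function (R 4.3.3, limma 3.58.1) at an offset of 16, and signals were quantile-normalized and taken to log2. Of 25697 probes, 23978 had 1 gene symbol in the supplied platform annotation, 0 had several and 1719 had none here. The 10021 named probes above background (detection p under 0.05) on 2 or more arrays were tested.

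Each main comparison used all 8 arrays and a block term for each of 4 matched pairs, which leaves 3 residual degrees of freedom before moderation. By the labels, the arrays of a pair share 2 factors and differ in 1. A probe passed at a Benjamini-Hochberg adjusted p under 0.05 over all tested probes, and differences are first group minus second. The fits were tested on simulated data. The members and gene lists were chosen with earlier results of these data known. Named are all members, the listed genes that passed (otherwise the 2 with the largest differences), each by its brightest probe, and the 3 genes closest in profile, each by its best correlated probe. The alternatives tried were median centring, the authors' log2 values, an offset of 50, uncorrected background, no filter, detection on at least 4 arrays, 1 probe per gene, no pair block, a trend in the variance, and each pair left out.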

Additional observations from a re-analysis of the deposited data

Results flagged for a closer look

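Atf3 drew attention because its K14 minus control differences went opposite ways in the 2 tissues: both spleen pairs were below 0, at -0.05 and -0.02, and both gut pairs were above it, at 0.82 and 1.07. The difference between tissues was 0.98 ± 0.32 log2 and did not pass by limma (adjusted p = 0.747). The spleen readings were at background on all 4 arrays, so the direction in spleen has no measured level behind it.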

How the results depend on the processing

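The gut minus spleen differences of the 6 members kept their direction in 78 of 78 values under the alternatives. All 6 had an unadjusted limma p under 0.05 in each. So had 23.6% of all probes in the main analysis, and 1767 to 2552 of 10021 in the alternatives with the same probes. Fosb and Atf3 met the filter through the gut arrays and are not set against these shares. The number of members past the adjusted threshold was 6 in the main analysis, 4 without the detection filter (adjusted p = 0.0761 for Jun and 0.0667 for Jund) and 0 to 3 with a pair left out. Over all probes, 214 passed, against 560 with the authors' values, 514 without background correction, 389 with detection on at least 4 arrays, 550 without the pair block, 587 with a variance trend, 134 without the filter and 0 to 33 with a pair left out. Of the calls 71% were higher in gut, against 50.7% with the authors' values and 55.3% without background correction. For Treg minus Tcon 55 probes passed, against 105, 89, 122 and 127 without background correction, with detection on at least 4 arrays, without the pair block and with a trend, and 0 without the filter or with a pair left out. The K14 minus control differences kept their direction in 78 of 78 values.

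Signs turned where differences were small, and the cause was not tested. With a pair left out, Treg minus Tcon ranged from -0.313 to 0.0317 for Fos, -0.0216 to 0.225 for Junb and -0.136 to 0.31 for Jund. The difference of gut minus spleen between Treg and Tcon ranged from -0.278 to 1.65 for Fosb, -1.17 to 1.17 for Jun, -0.459 to 0.916 for Junb, -0.513 to 0.723 for Jund and -0.419 to 0.669 for Atf3, and was -0.098 for Jun under median centring. The difference of K14 minus control between Treg and Tcon ranged from -1.23 to 0.701 for Fosb, -1.66 to 0.68 for Jun, -0.793 to 0.582 for Junb and -0.399 to 0.688 for Atf3, and was 0.058 for Fosb with the authors' values. The replicate numbers in the titles run with the genotype and pair no arrays; the matched pairs come from the labels' other 2 factors. Signal near background limits Atf3 and Fosb in spleen.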
